A study of Mus musculus with 12 samples.

Results

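A set of 10 genes of the stress-responsive basic leucine zipper (bZIP) network was followed in mouse auditory cortex: Atf3, Atf4, Atf5, Ddit3, Cebpb, Cebpd, Maff, Mafk and Nfil3, which encode bZIP transcription factors, and Ppp1r15a, which encodes the stress-induced partner of protein phosphatase 1. They were chosen by gene symbol, each is 1 of the 20989 loci listed for every library, and all 10 had a mean of at least 1 FPKM (fragments per kilobase of transcript, scaled to the mapped fragments of the library) and so were among the 12032 loci tested. The tissue came from 6 C57bl6/J mice aged 4 weeks. Coronal slices were split at the midline, and 1 hemisphere of each mouse was kept for 1 h in plain artificial cerebrospinal fluid (control) while the other was kept for 1 h in the same fluid with the cocktail. The cocktail held 50 µM bicuculline (a blocker of GABA-A receptors), 100 µM norepinephrine, 50 µM carbamoylcholine (an agonist of acetylcholine receptors), 100 µM dopamine, 40 µM ascorbic acid and 100 µM serotonin. Per the study's methods, all hemispheres then rested for 1 h more in plain fluid before the cortex was dissected, a step that the labels do not mention. Poly-A RNA of the dissected auditory cortex was sequenced, giving 6 control and 6 cocktail libraries paired by mouse. Both groups had been cut and allowed to recover as slices, uncut cortex was not analysed here, and which side, left or right, received the cocktail is not given in the sources used here. The labels name no transgene, but the study also worked with a knock-in line, and whether these 6 mice carried it is not given in the sources used here. With 1 cocktail at 1 time point, the contributions of its agents cannot be told apart.

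A bZIP factor binds DNA as a dimer, and the choice of partner sets which sequence is recognised. In the integrated stress response, kinases that phosphorylate the initiation factor eIF2 lower general translation but favour translation of the Atf4 mRNA. ATF4 then acts on Atf3, Ddit3 (which encodes CHOP), Atf5 and amino acid metabolism genes, and PPP1R15A (GADD34) closes the loop by directing the dephosphorylation of eIF2. Atf3, Cebpb, Maff and Nfil3 are also known as immediate or delayed early genes that depolarisation, cAMP and calcium can raise. The measurements here are of mRNA, so the translational step that controls ATF4 protein lies outside them.

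The promoters are shown first because several of these genes carry the cAMP response element (CRE), the palindrome TGACGTCA bound by CREB and ATF dimers, or its core TGACG. For 5 of the 6 genes whose mRNA rose, the part of the 150 bases before the RefSeq transcription start that lies in no exon of the GENCODE annotation (build GRCm38.p6, the same assembly as mm10) is given 5′ to 3′ on the gene's strand, with matches to the searched motifs in capitals.
Atf3 chr1:191183341-191183483 (minus strand): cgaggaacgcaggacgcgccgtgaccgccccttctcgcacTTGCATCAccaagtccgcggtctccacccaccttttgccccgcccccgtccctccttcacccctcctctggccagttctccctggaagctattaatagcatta
Ppp1r15a chr7:45526269-45526329 (minus strand): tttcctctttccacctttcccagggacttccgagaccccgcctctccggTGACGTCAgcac
Cebpb chr2:167688765-167688914 (plus strand): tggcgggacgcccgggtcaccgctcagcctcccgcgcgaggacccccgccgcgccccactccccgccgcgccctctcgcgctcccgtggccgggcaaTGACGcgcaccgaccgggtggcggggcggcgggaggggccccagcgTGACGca
Maff chr15:79347370-79347519 (plus strand): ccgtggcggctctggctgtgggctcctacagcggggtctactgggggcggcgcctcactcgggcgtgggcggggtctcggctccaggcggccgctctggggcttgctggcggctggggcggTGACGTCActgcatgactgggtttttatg
Nfil3 chr13:52981074-52981189 (minus strand): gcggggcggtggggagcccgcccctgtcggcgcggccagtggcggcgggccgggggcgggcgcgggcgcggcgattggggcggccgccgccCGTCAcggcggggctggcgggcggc

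Exon bases were left out for 3 of the 5: 7 bases next to the start of Atf3 and 34 next to that of Nfil3, where the GENCODE first exon begins upstream of the RefSeq start, and 89 bases of Ppp1r15a, on the side away from its start, that lie in an exon of Plekha4 on the other strand. Windows from 250 bases before to 50 after a start were in the reference for 9 of the 10 genes (12 windows), and the promoter of Cebpd was not analysed here. The complete CRE was found in Ppp1r15a, with its first base at position -12 from the start, and in the window of Maff printed above, at position -29. Maff has several RefSeq starts, and the printed window was chosen because it holds the complete CRE. Its start (chr15:79347520) lies inside the Maff locus, and the window at the first base of the locus (chr15:79346621) held no TGACG. The complete CRE stood in 1.79% of the 32851 promoter windows of the reference. TGACG, which the full CRE contains on both strands, was read in either orientation in 7 of the 9 genes (Atf3, Atf4, Cebpb, Maff, Mafk, Nfil3 and Ppp1r15a), or 66.7% of their windows against 20.8% of all windows. The windows of these genes were also richer in G and C, with a median of 61.0% against 52.7% for all windows. The TGACG letters of Atf3 lay within its 7 left-out bases. Ddit3, the gene with a rise that is not printed above, held no TGACG. Atf4 and Mafk, which held it, were not called in the main fit described below. Atf3 held the C/EBP-ATF composite element (searched as TGATGNAA, read on the other strand as TTGCATCA) at position -110, an element found in 3.97% of all windows. Ddit3 held the AP-1 letters TGANTCA as TGACTCA at position -242 (7.81% of all windows), and another Maff window held the C/EBP letters TTGCNNAA at position -55 (10.8%). TATAAA was present in Cebpb and Ppp1r15a (13.6% of all windows), in both after the RefSeq start, at positions 22 and 16. The CArG box was found in none of the 9 genes (1.63%). A match describes the letters only, and binding was not measured.

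**Figure D1:**
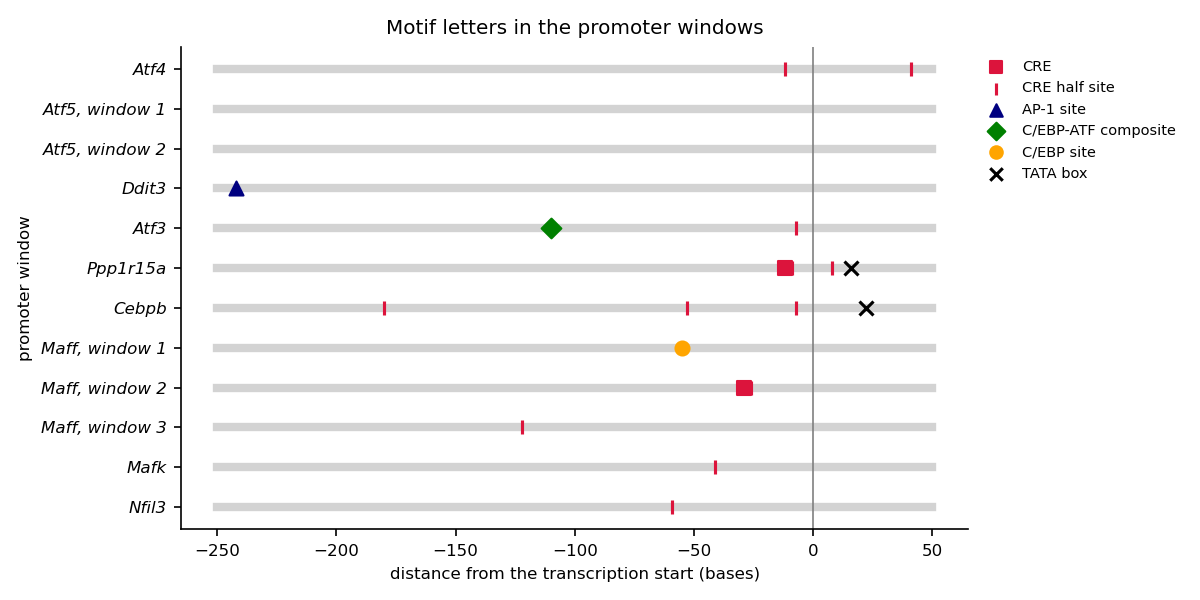
Positions of the searched motif letters in the 12 promoter windows of 9 genes. The x axis is the distance in bases from the RefSeq transcription start (grey vertical line) to the first base of a match, each grey bar is 1 window, and symbols mark motifs (red ticks are TGACG in either orientation). The complete CRE stands in Ppp1r15a and in the second Maff window, and TGACG occurs in 7 of the 9 genes.

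Of the 10 mRNAs, 6 were higher after the cocktail at an adjusted p under 0.05: Atf3, Maff, Nfil3, Ppp1r15a, Cebpb and Ddit3, in order of size. None was lower. Over all 12032 loci tested, 1.5% passed this threshold in either direction, 1.22% higher and 0.274% lower. The median log2 fold change was 0.355 over the 10 genes and 0.008 over all loci. Here and below, a log2 fold change is the fitted difference, cocktail minus control, in log2(FPKM + 1) with mouse as a block, with its standard error (SE), and adjusted p values are from limma with Benjamini-Hochberg adjustment over all loci tested. The same 6 genes were higher in the cocktail hemisphere of 6 of 6 mice, which held for 3.64% of all loci. For Atf3 and Cebpb, every cocktail library lay above every control library, which held for 0.715% of all loci.

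**Figure D2:**
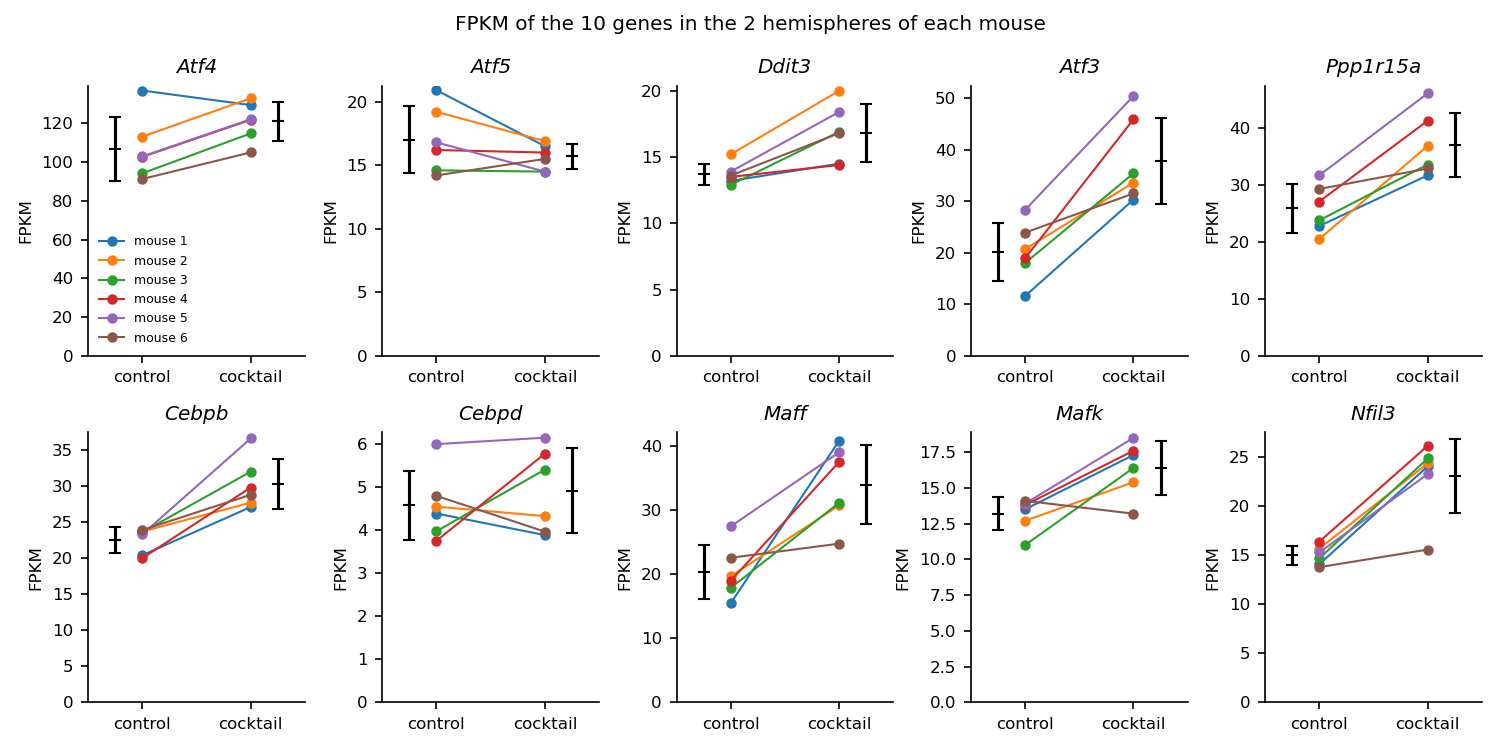
FPKM (y axis, from 0) of the 10 genes in the control and cocktail hemispheres (x axis). Each coloured line joins the hemispheres of 1 mouse, and the black bars beside the points are the mean ± SD of 6 libraries. For Atf3 and Cebpb all cocktail points lie above all control points, while Atf4 falls only in mouse 1 and Atf5 rises only in mouse 6.

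The libraries held between 10600193 and 19768184 reads, as recovered from the confidence intervals of the FPKM values. A single library stood apart. In the control library of mouse 1, FPKM per recovered read differed from the median of the 12 libraries by over 0.25 on the log2 scale at 30.9% of 8869 loci, against at most 3.69% in the other 11 libraries. This library had the lowest FPKM per read of all 12 for 7 of the 10 genes, down to 0.661 times the median library for Ppp1r15a, 0.70 for Ddit3, 0.714 for Cebpb, 0.722 for Atf3 and 0.732 for Nfil3, but the highest for Atf4, at 1.21 times. The cause was not tested. The mouse 1 pair enters every comparison, so values without mouse 1 or from recovered reads are set beside those they move. Without mouse 1, 7 of the 10 genes passed the threshold as higher, the same 6 and Atf4 (1.09% of all loci passed as higher). With limma-voom on recovered reads and all 6 mice, 5 passed: Atf3, Atf4, Maff, Nfil3 and Ppp1r15a (1.07% of loci). With voom and without mouse 1, a setting chosen after seeing the data, 8 passed, all but Atf5 and Cebpd (1.83% of loci).

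The marker genes of cell types, and of hippocampus and striatum, gave no call in the 7 lists with a gene tested, and no blood marker was tested. The summed FPKM of 6 excitatory neuron markers was 1462 to 1586 over the control and 1396 to 1590 over the cocktail libraries, and the blood markers summed to at most 2.8 FPKM. The 7 microglial markers, from cells in which Cebpb, Maff and Atf3 are known to be inducible, summed to 85.6 to 96.9 FPKM (control) and 85.0 to 103.7 FPKM (cocktail). Oligodendrocyte markers summed to 1998 to 2566 and 2301 to 2645 FPKM, with all 6 higher in the fit and none called. All 6 inhibitory neuron markers (479.8 to 540.2 and 510.6 to 556.9 FPKM) and 5 of 6 astrocyte markers were also higher in the fit. So were 3 of 6 excitatory neuron, 4 of 7 microglial, 4 of 6 endothelial and 1 of 4 hippocampus and striatum markers. In bulk tissue a change in the number of cells of a type and a change in RNA per cell cannot be told apart.

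Atf4 (chr15:80255184-80257545 in mm10, the build of all positions that follow), the factor translated when eIF2 is phosphorylated, was by far the most abundant of the mRNAs, at 106.7 ± 16.6 FPKM in control and 120.9 ± 10.1 in cocktail hemispheres (mean ± SD, n = 6). In mice 1 to 6 its control values were 136.8, 113.0, 94.1, 102.6, 102.8 and 91.2 FPKM, and its cocktail values 129.3, 132.8, 114.7, 121.7, 122.0 and 104.9. The groups overlapped, and 5 of 6 mice were higher after the cocktail, the exception being mouse 1, whose control library was the highest of the control libraries. The fitted log2 fold change was 0.19 (SE 0.053) and did not pass the test (adjusted p = 0.165, limma). The value depended on mouse 1. Without that mouse the log2 fold change was 0.24 (adjusted p = 0.00458, limma). On recovered reads, where the mouse 1 control library no longer exceeded its cocktail partner (220.0 against 246.0 RPM, reads scaled to the library total), Atf4 was higher in 6 of 6 mice, with a mean log2 ratio of 0.234 ± 0.0578 (SD), the least variable change of the 10 genes (exact two-sided sign-flip permutation p = 0.03125, the smallest that 6 pairs allow; voom adjusted p = 0.0116). The size in each case was well below that of Atf3.

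Atf5 (chr7:44812256-44816658), a relative of ATF4 whose mRNA also carries upstream reading frames, had 17.0 ± 2.63 FPKM in control and 15.7 ± 1.01 in cocktail hemispheres. Its control values in mice 1 to 6 were 20.9, 19.2, 14.6, 16.2, 16.8 and 14.2 FPKM and its cocktail values 16.5, 16.9, 14.5, 16.0, 14.5 and 15.5. By FPKM only mouse 6 was higher after the cocktail, and the ranges overlapped. The log2 fold change was -0.099 (SE 0.06, adjusted p = 0.779, limma). By reads, 4 of 6 mice were higher, although the mean log2 ratio was -0.054. Without mouse 1 the log2 fold change was -0.054 (limma) or -0.002 (voom). Nup62, on the opposite strand across part of the same locus, had a log2 fold change of -0.086 (adjusted p = 0.816).

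Ddit3 (chr10:127290793-127296288) encodes CHOP, which pairs with C/EBP proteins and is linked to cell death in prolonged stress. Its control values in mice 1 to 6 were 13.2, 15.2, 12.9, 13.5, 13.9 and 13.6 FPKM, a narrow spread of 13.7 ± 0.797, and its cocktail values 14.5, 20.0, 16.9, 14.4, 18.4 and 16.8 (16.8 ± 2.16). All 6 mice were higher after the cocktail, although the ranges overlapped, and the log2 fold change was 0.27 (SE 0.056, adjusted p = 0.0338, limma). This was the least stable of the 6 calls. It was lost in 8 of 13 alternatives, among them the fits without mouse 2, 3, 5 or 6 (0.142, 0.155, 0.119 and 0.0924 as adjusted p) and voom (log2 fold change 0.21, adjusted p = 0.358). By reads, the control library of mouse 1 was the highest of the control libraries, at 31.0 RPM against 28.0 in its cocktail partner, so that 5 of 6 mice rose. Mars, on the opposite strand, had a log2 fold change of 0.028.

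Atf3 (chr1:191170297-191183333), a factor that is induced by ATF4 and by neuronal activity alike, showed the largest change of the 10. Its control values in mice 1 to 6 were 11.6, 20.7, 18.0, 18.9, 28.3 and 23.9 FPKM and its cocktail values 30.3, 33.6, 35.4, 45.9, 50.4 and 31.5. The lowest cocktail library, mouse 1, exceeded the highest control library, mouse 5. The means were 20.2 ± 5.66 and 37.8 ± 8.31 FPKM, a ratio of 1.87, and the log2 fold change was 0.89 (SE 0.10, adjusted p = 0.000532, limma). The rise was smallest in mouse 6 (0.381 on the log2 scale) and, by FPKM, largest in mouse 1 (1.313). By reads it was largest in mouse 4 (1.371, against 1.127 in mouse 1), and the mean log2 ratio was 0.873 with 6 of 6 mice higher.

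Ppp1r15a (chr7:45522917-45526268), the regulatory subunit that brings the phosphatase to eIF2, had control values of 22.8, 20.5, 23.8, 27.1, 31.7 and 29.3 FPKM in mice 1 to 6 and cocktail values of 31.7, 36.9, 33.6, 41.3, 46.1 and 32.9. The highest control library (mouse 5) and the lowest cocktail library (mouse 1) were both at 31.7 FPKM, and in every mouse the cocktail hemisphere was higher. The means were 25.9 ± 4.25 and 37.1 ± 5.61 FPKM, and the log2 fold change was 0.51 (SE 0.07, adjusted p = 0.00213, limma). By reads the mean log2 ratio was 0.435 with 6 of 6 mice higher (voom adjusted p = 0.0158).

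Cebpb (chr2:167688915-167690432, a gene of 1 exon), which encodes a C/EBP factor of acute phase, metabolic and memory-related transcription, had control values of 20.4, 23.7, 23.6, 20.0, 23.3 and 23.9 FPKM in mice 1 to 6 and cocktail values of 27.1, 27.7, 32.0, 29.8, 36.6 and 28.8. No cocktail library fell within the control range. The means were 22.5 ± 1.78 and 30.3 ± 3.52 FPKM, with a log2 fold change of 0.41 (SE 0.06, adjusted p = 0.00302, limma). The separation of the groups was not kept on reads, where the mouse 1 control library was the highest control at 24.1 RPM and its cocktail partner had 23.5. There 5 of 6 mice were higher, the mean log2 ratio was 0.311 and voom did not call the gene (adjusted p = 0.155), whereas voom without mouse 1 did (log2 fold change 0.38, adjusted p = 0.00601). Tmem189, which overlaps on the opposite strand, had a log2 fold change of 0.099 (adjusted p = 0.794, limma).

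Cebpd (chr16:15887286-15889545), a C/EBP factor of inflammation, was the lowest of the 10, with 110 to 213 recovered reads a library. Its values in mice 1 to 6 were 4.38, 4.54, 3.97, 3.75, 5.99 and 4.79 FPKM in control and 3.88, 4.32, 5.4, 5.77, 6.14 and 3.96 FPKM in cocktail hemispheres. In all, 3 of 6 mice were higher, with the largest rises in mice 3 and 4. The log2 fold change was 0.081 (SE 0.093, adjusted p = 0.891, limma). Without mouse 4 it was -0.006 and without mouse 1 it was 0.125. By reads, 4 of 6 mice were higher.

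The small Maf proteins have no activation domain of their own and act as partners of NRF2 (Nfe2l2), its relatives and BACH proteins. Maff (chr15:79346621-79359076) had control values of 15.5, 19.7, 17.9, 19.0, 27.5 and 22.6 FPKM in mice 1 to 6 and cocktail values of 40.9, 30.8, 31.2, 37.6, 39.1 and 24.8. Mouse 6 had the lowest cocktail value, inside the control range, and the other 5 cocktail libraries lay above every control library. The means were 20.4 ± 4.19 and 34.0 ± 6.16 FPKM, with a log2 fold change of 0.72 (SE 0.12, adjusted p = 0.0087, limma), which ran from 0.126 in mouse 6 to 1.347 in mouse 1. With no filter on low values the call was lost (adjusted p = 0.0709), and without mouse 1 the log2 fold change was 0.59 (adjusted p = 0.00889).

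Mafk (chr5:139791536-139802652), a close relative of Maff, had control values of 13.5, 12.7, 11.0, 13.8, 13.9 and 14.1 FPKM in mice 1 to 6 and cocktail values of 17.3, 15.4, 16.4, 17.6, 18.5 and 13.2. In all, 5 of 6 mice were higher and mouse 6 was lower. The means were 13.2 ± 1.16 and 16.4 ± 1.87 FPKM and the log2 fold change of 0.30 (SE 0.07) missed the threshold (adjusted p = 0.0759, limma). Without mouse 6 it was 0.37 (adjusted p = 0.00781). By reads the mean log2 ratio was 0.282 with 5 of 6 mice higher (voom adjusted p = 0.121, or 0.0359 without mouse 1).

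Nfil3 (chr13:52967209-52981039), a repressor that shares its DNA sequence with the PAR bZIP activators DBP, TEF and HLF, had control values of 14.1, 15.7, 14.7, 16.4, 15.3 and 13.8 FPKM in mice 1 to 6, a spread of 15.0 ± 1.0. Its cocktail values were 24.1, 24.4, 24.9, 26.2, 23.3 and 15.6 (23.1 ± 3.79). The cocktail library of mouse 6 lay within the control range and the other 5 lay well above it. The log2 fold change was 0.57 (SE 0.07, adjusted p = 0.000841, limma), and the call held in all 13 alternatives, as did those of Atf3 and Ppp1r15a. By reads the control libraries of Nfil3 ran from 32.1 to 46.0 RPM (38.0 ± 4.96), and the mean log2 ratio was 0.542 with 6 of 6 mice higher. The log2 ratio of mouse 1 was 0.447 by reads and 0.77 by FPKM.

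**Figure D3:**
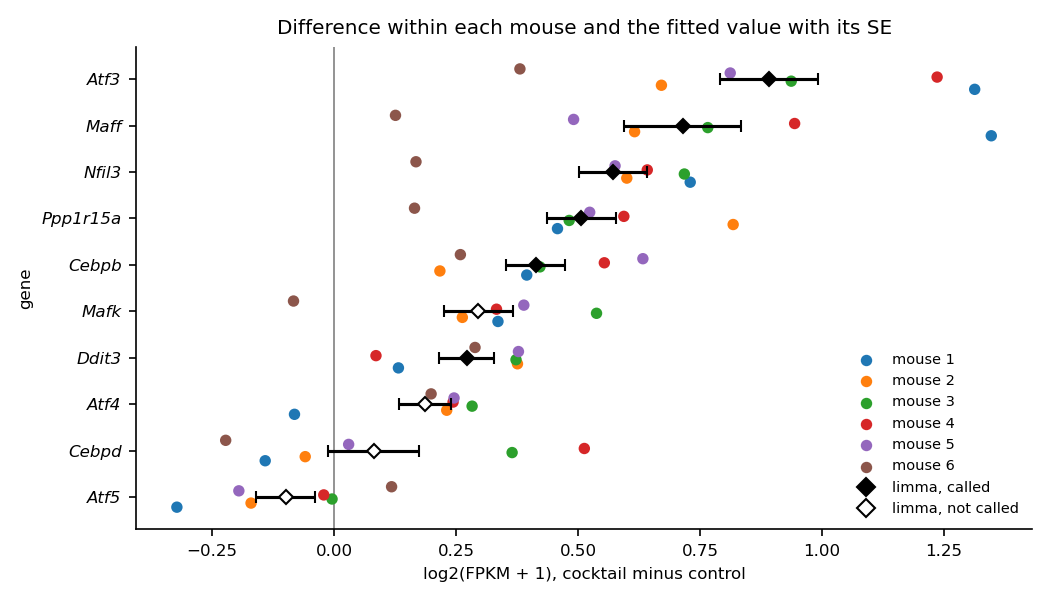
Difference in log2(FPKM + 1), cocktail minus control (x axis), for the 10 genes in order of the fitted value. Coloured points are the 6 mice, and diamonds with bars are the limma log2 fold change ± SE, filled where the adjusted p was under 0.05. Mouse 6 has the smallest rise for Atf3, Maff, Nfil3 and Ppp1r15a.

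The size of the rise differed between the mouse pairs. Each mouse gave 1 library per group, so differences between animals, hemispheres and libraries cannot be told apart. The genes of a mouse share these libraries and are not independent. Mouse 6 had the smallest rise in 4 of the 6 called genes (Atf3, Maff, Nfil3 and Ppp1r15a), and its median rise over the 6 was 0.214 on the log2 scale, against 0.55 to 0.618 in the other mice. By reads, mouse 6 again had the smallest rise in these 4 genes, with a median of 0.174 over the 6, while mouse 1 was at 0.30 and the other 4 mice at 0.483 to 0.732. The control library of mouse 6 was the shallowest, with 10600193 recovered reads, and its part in this was not tested. Mouse 1 had the largest rise in 3 of the 6 by FPKM but in 1, Maff, by reads, where mouse 4 had the largest in 4. Mouse 5 had the highest control library in 4 of the 10 genes and the highest cocktail library in 5.

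The order of the levels changed between the groups. In control hemispheres the mean FPKM ran Atf4, Ppp1r15a, Cebpb, Maff, Atf3, Atf5, Nfil3, Ddit3, Mafk, Cebpd, and neighbouring ranges were separate only between Atf4 and Ppp1r15a and between Mafk and Cebpd. In cocktail hemispheres it ran Atf4, Atf3, Ppp1r15a, Maff, Cebpb, Nfil3, Ddit3, Mafk, Atf5, Cebpd, with separate neighbouring ranges at Atf4 and Atf3, at Cebpb and Nfil3, and at Atf5 and Cebpd. Atf3 and Ppp1r15a, next to each other in the cocktail order, differed by less than the spread between libraries (37.8 and 37.1 FPKM).

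A total of 4 pairs of relatives or partners were compared mouse by mouse, with exact two-sided sign-flip permutation tests over the 6 differences. Atf3 rose more than Ddit3 by 0.62 on the log2(FPKM + 1) scale (SD 0.451), Maff exceeded Mafk by 0.42 (SD 0.338), Cebpb exceeded Cebpd by 0.33 (SD 0.245), and Atf4 exceeded Atf5 by 0.29 (SD 0.128). The first gene had the larger change in 6 of 6 mice for each pair, which gave the smallest p that 6 mice allow in this exact permutation test (0.03125, and 0.0312 after adjustment over the 4 pairs). The pairs were chosen with earlier results of these data known, so these p values are descriptive only. For Cebpb and Cebpd the difference missed the threshold with a pseudocount of 0.1 (0.33, exact permutation p = 0.09375) and on recovered reads (0.20, exact permutation p = 0.09375). A pseudocount of 1 understates changes of a gene as low as Cebpd.

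**Figure D4:**
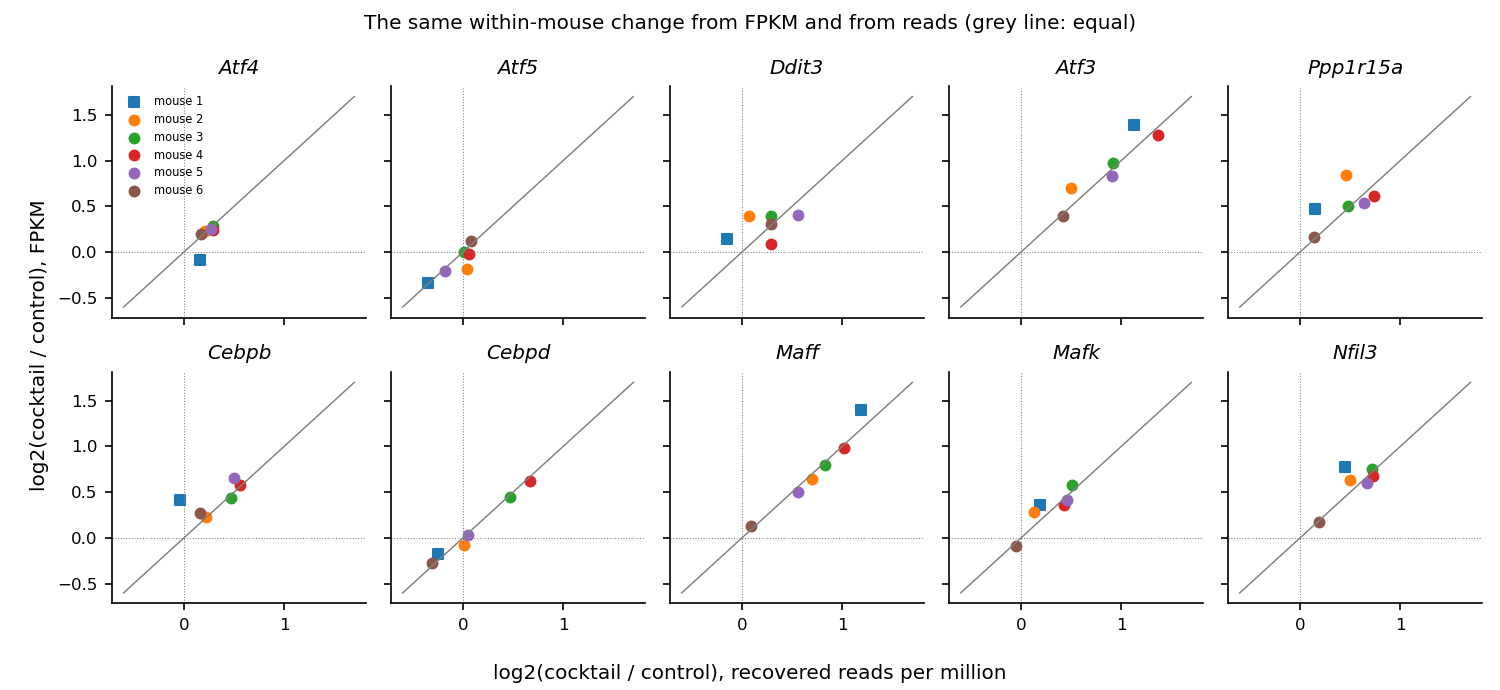
The log2 ratio of cocktail to control in each mouse from FPKM (y axis) against that from recovered reads scaled to the library total, RPM (x axis), 1 panel per gene, with the grey line marking equal values. Mouse 1 (blue squares) lies above the line for Cebpb, Ddit3, Ppp1r15a, Nfil3, Atf3, Maff and Mafk, more narrowly for Cebpd, and below it for Atf4. Mouse 2 lies above it for Ddit3, Ppp1r15a, Atf3, Mafk and Nfil3 and most clearly below it for Atf5.

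Of 108 genes of the wider pathways tested, 4 were called, 1 higher and 3 lower, or 3.7% against 1.5% of all loci. Among 11 genes for the eIF2 kinases, the constitutive phosphatase subunit and the exchange factor eIF2B, none was called. Their median log2 fold change was 0.034, and 10 of the 11 were above 0. The largest was that of Ppp1r15b, the phosphatase subunit (0.23, SE 0.058, higher in 6 of 6 mice, adjusted p = 0.104, limma). Under voom without mouse 1, 1 gene of this list was called. The most abundant of the 11, Eif2ak1 (the heme-regulated eIF2 kinase), had 21.8 ± 2.31 FPKM in control and 21.7 ± 1.36 in cocktail hemispheres. Of 41 ATF4 and CHOP target genes, 37 were tested, 26 had a fold change above 0 and the median was 0.033. The single call was in the lower direction: Gdf15, a secreted stress cytokine, fell from 6.39 ± 2.74 to 3.09 ± 1.26 FPKM, lower in 6 of 6 mice (log2 fold change -0.82, SE 0.072, adjusted p = 6.46e-05, limma). Its call was lost with no replicate block (adjusted p = 0.266, limma), and its control values ran from 2.57 to 10.2 FPKM.

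Of 20 genes for endoplasmic reticulum chaperones and other ATF6 or XBP1 targets, 1 was called. Hspa5, the chaperone BiP, rose from 166.3 ± 13.0 to 217.2 ± 24.0 FPKM in 6 of 6 mice (log2 fold change 0.38, SE 0.061, adjusted p = 0.00746, limma), and 15 of the 20 had a fold change above 0, with a median of 0.057. Partners of the small Maf proteins and antioxidant targets gave no call among 14 tested (median 0.067), of which 10 had a fold change above 0. Nfe2l2 had a log2 fold change of 0.24, higher in 6 of 6 mice (adjusted p = 0.0708, limma). Bach1 had 0.27, higher in 5 of 6 mice (adjusted p = 0.11, limma). In this list 1 gene was called without mouse 6 and 2 under voom without mouse 1. The most abundant partner gene was Nfe2l1, at 66.4 ± 3.02 and 63.5 ± 2.52 FPKM, although its estimate was marked as failed in 2 libraries.

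The other bZIP genes listed gave no call: 0 of 5 tested C/EBP and Maf genes, 0 of 10 ATF, BATF and CREB3 genes and 0 of 3 PAR bZIP genes. The Fos and Jun genes and Crem were in none of the lists, so these counts do not cover all bZIP genes. Mafg, the remaining small Maf gene, stood at 25.2 ± 1.16 and 25.5 ± 0.757 FPKM in control and cocktail hemispheres. Atf2 stood at 39.7 ± 3.32 and 38.5 ± 2.11 FPKM, and Tef, an activator that competes with NFIL3 for its sites, at 77.5 ± 9.9 and 73.9 ± 4.6. Of 10 acute phase and C/EBP-linked inflammatory genes tested, none was called higher and 2 were called lower (0.274% of all loci were called lower). A fold change above 0 was seen in 3 of the 10. The chemokine gene Ccl2 went from 4.68 ± 1.33 to 2.55 ± 0.408 FPKM (log2 fold change -0.66, SE 0.11, adjusted p = 0.0103, limma), and the cytokine gene Il6 from 2.37 ± 0.513 to 1.48 ± 0.50 (log2 fold change -0.45, SE 0.073, adjusted p = 0.00746, limma). Both were lower in 6 of 6 mice. Ccl2 lost its call with no filter on low values (adjusted p = 0.0795) and without mouse 2 (0.0583), and Il6 with no replicate block (0.171) and under voom without mouse 1 (0.0639).

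**Figure D5:**
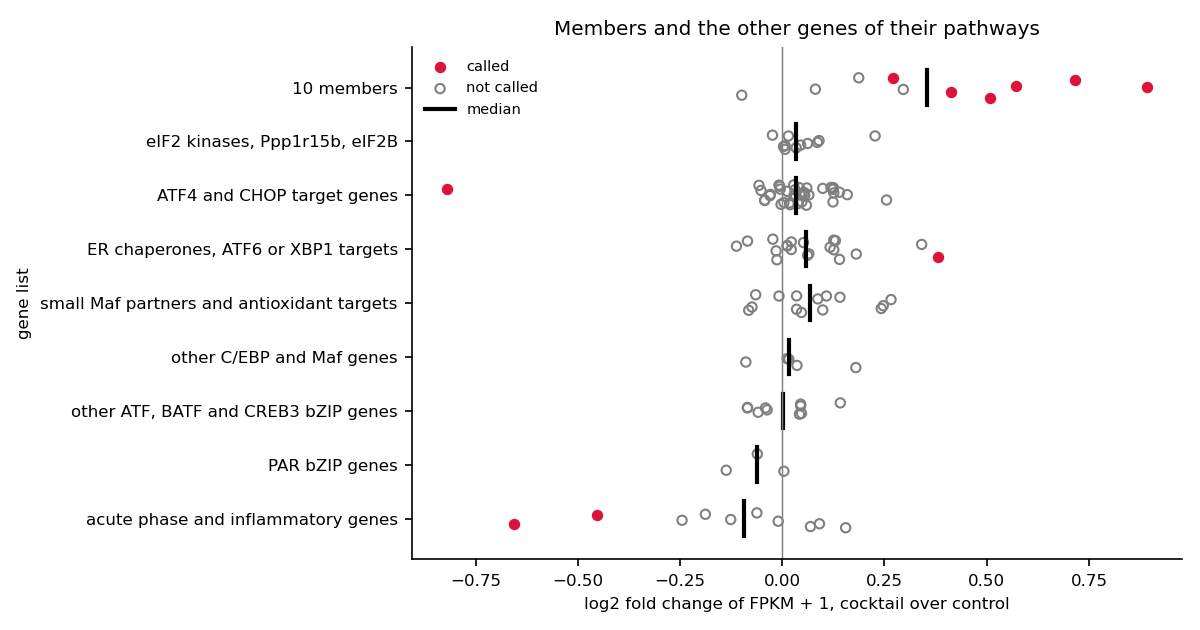
Fitted log2 fold change of FPKM + 1, cocktail over control (x axis), of the 10 genes and of 8 lists of pathway genes (y axis). Red points passed an adjusted p of 0.05, open points did not, and black bars are medians. The median is 0.355 for the 10 genes and lies between -0.094 and 0.067 for the lists, where Hspa5 is the call above 0 and Gdf15, Ccl2 and Il6 are the calls below it.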

How the data were processed

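Auditory cortex RNA from 6 mice, 1 control and 1 cocktail hemisphere each, was sequenced by the authors. Per the labels and the study's methods, reads were cleared of rRNA with BWA 0.6.1 and aligned to mm10 with TopHat 1.4.1, and Cufflinks 1.3.0 gave the deposited FPKM values with bias correction over RefSeq genes. Whether strand was used for FPKM is not given in the sources used here, so overlapping genes on opposite strands may share reads. Besides Nup62, Mars and Tmem189, 4 genes overlap a member on the opposite strand but matched no tested locus. They are Il4i1 (at Atf5), Spidr (at Cebpd), Tmem184a (at Mafk) and Tulp2 (at Ppp1r15a). A table of the authors' own comparison (fold changes and p-values from HTSeq and DESeq2) was not used.

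FPKM values were analysed as log2(FPKM + 1) at the 12032 loci with a mean of at least 1, with limma 3.58.1 in R 4.3.3 (mouse as a block, trended variance, Benjamini-Hochberg, threshold 0.05). The pairing comes from the mouse number in the labels, and the deviations of same-mouse libraries correlated at 0.216 to 0.406 (6 pairs, median 0.337), against -0.42 to 0.445 between mice (30 pairs, median -0.0714). Single genes and pairs were also tested by exact sign-flip permutation. Reads were recovered from the width of the Cufflinks intervals where the status was OK, and 83.2% of 36158 values under 20 reads came out whole within 0.05. They served as alternatives only (voom, and reads scaled to the library total, RPM). Promoter letters were read from RefSeq windows on GRCm38.p6, and overlapping genes from GENCODE. The alternatives were another pseudocount, other filters, another scaling, no block and each mouse left out.

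The 10 genes, the lists and the tests were chosen with earlier results of these data known. The text names all 10 and, from each pathway list, the called genes (at most 4) or, with none called, the most abundant. Nfe2l2, Bach1, Ppp1r15b and genes overlapping a member were added after the values were seen. Intervals of FPKM cover counting error only.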

Additional observations from a re-analysis of the deposited data

Results flagged for a closer look

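In 3 of 30 groups of 6 values (control FPKM, cocktail FPKM and within-mouse difference of each gene), 1 value lay apart from the others by Dixon's criterion, where chance gives about 1.5. Each difference is made from FPKM values that were also tested, so the groups are not independent. Both flags of Nfil3 involve the same cocktail library. For Atf4 the within-mouse log2 difference of mouse 1 was -0.081, against 0.199 to 0.283 in the other mice. On recovered reads the same mouse had a log2 ratio of 0.164, and its control library was the one with unusual FPKM per read. For Nfil3 the cocktail hemisphere of mouse 6 had 15.6 FPKM, against 23.3 to 26.2 in the others, and the within-mouse difference of mouse 6 was 0.168, against 0.576 to 0.73. The part of depth in mouse 6 was not tested.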

How the results depend on the processing

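The number of the 10 genes called ran from 4 to 8 over 13 alternatives. The calls of Atf3, Nfil3 and Ppp1r15a held in each. With no replicate block, the paired fit's 180 calls over all loci became 88, the calls in the pathway lists went from 4 to 2, and 5 of the 10 genes stayed called, Ddit3 being lost (adjusted p = 0.164, limma). With a mean FPKM of at least 5, 1 pathway gene, Hspa5, was called, while Gdf15, Ccl2 and Il6 lay under this filter and were not tested. With voom on recovered reads and mouse 1 left out, chosen after seeing the data, 284 loci and 8 pathway genes were called. Leaving out each mouse in turn gave 104 to 181 calls over all loci, lowest without mouse 4, and 3 to 5 in the pathway lists. Cebpd reversed without mouse 4 (-0.006), in a range of -0.006 to 0.141 with each mouse left out. Pair differences with 1 mouse left out ran from 0.278 to 0.391 for Cebpb and Cebpd, 0.30 to 0.482 for Maff and Mafk, 0.507 to 0.725 for Atf3 and Ddit3 and 0.255 to 0.327 for Atf4 and Atf5, where 5 mice allow no exact permutation p below 0.0625. The Cebpb and Cebpd difference was 0.333 with a pseudocount of 0.1 and 0.198 on reads (exact permutation p = 0.09375 in each). The causes were not tested. Depth limits Cebpd most, with as few as 110 reads.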
